A study of Mus musculus with 8 samples.

Results

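The 4 genes described here encode the ligands of PD-1 and the B7 costimulators: Cd274 (PD-L1), Pdcd1lg2 (PD-L2), Cd80 (B7-1) and Cd86 (B7-2). They were taken by symbol from 31053 genes in experiment 1 and 32285 in experiment 2, and all 4 were found in both experiments. PD-L1 and PD-L2 bind PD-1, an inhibitory receptor that T cells put on their surface after activation. CD80 and CD86 bind CD28, which costimulates T cells, and CTLA-4, which inhibits them, and CD80 can also bind PD-L1 on the same cell. All 4 are best known from antigen-presenting cells, and activated T cells can make them as well. PD-L1 has a further role in this study, since it is the target to which the T cell engager binds.

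All mice were wild-type C57BL/6 with palpable tumours of MC38, a mouse colon carcinoma line. In experiment 1, CD8 T cells were taken by positive magnetic selection from tumours 7 days after subcutaneous rhIL-7-hyFc, an interleukin-7 fused to a hybrid Fc part, at 10 mg/kg, or after buffer. In experiment 2, all mice had rhIL-7-hyFc at 1.25 mg/kg subcutaneously, and 1 group (the combination) also had the anti-mPD-L1/anti-CD3ε T cell engager intravenously from 3 days later. Viable CD45+TCRb+CD8a+ cells of experiment 2 were sorted from tumours taken 24 hours after the last treatment. Each group is 1 library, and the sources used here do not say how many mice went into each. There is therefore no replicate check and no test between treatments: all intervals are 95% intervals, cover counting error only, and say nothing of the spread between mice.

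Cd274 (ENSMUSG00000016496) and Pdcd1lg2 (ENSMUSG00000016498) are neighbours on the plus strand of chromosome 19, at chr19:29367455-29388095 with 7 exons and chr19:29410919-29471161 with 6 exons (GRCm38, GENCODE M21), 22823 bp apart. Cd80 (ENSMUSG00000075122, chr16:38455561-38496335, plus strand) and Cd86 (ENSMUSG00000022901, chr16:36603869-36666081, minus strand) lie on chromosome 16, 1789479 bp apart. The promoter windows of the chromosome 19 pair are shown because these neighbouring genes differed in opposite directions between the 2 cell classes compared below. They are RefSeq sequences of GRCm38.p6 on the plus strand, 250 bases before to 50 bases after the annotated start, at chr19:29367188-29367487 for Cd274 and chr19:29410669-29410968 for Pdcd1lg2.
Cd274: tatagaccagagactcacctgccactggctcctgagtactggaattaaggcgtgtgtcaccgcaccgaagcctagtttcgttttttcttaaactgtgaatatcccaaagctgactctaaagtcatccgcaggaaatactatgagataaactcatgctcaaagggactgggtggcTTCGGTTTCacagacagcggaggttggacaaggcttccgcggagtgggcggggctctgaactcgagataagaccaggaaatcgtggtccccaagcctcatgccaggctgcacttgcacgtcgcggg
Pdcd1lg2: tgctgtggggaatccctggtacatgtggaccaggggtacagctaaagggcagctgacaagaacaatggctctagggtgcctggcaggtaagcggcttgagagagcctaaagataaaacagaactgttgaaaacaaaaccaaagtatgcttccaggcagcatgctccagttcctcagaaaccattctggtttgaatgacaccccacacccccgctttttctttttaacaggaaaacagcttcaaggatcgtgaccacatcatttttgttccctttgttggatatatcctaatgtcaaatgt
The capitals mark GAAANNGAA, a shortened form of the interferon-response element, which reads on the minus strand from 76 to 68 bases before the Cd274 start. This short form was searched after the sequence had been seen, and 8.56% of 32851 promoter windows hold it on either strand. The form with a further A at its 3′ end (3.44% of windows) and the STAT-type TTCNNNGAA (8.30%) were in none of the 3 member promoters found, those of Cd274, Pdcd1lg2 and Cd80. These matches describe letters in the windows and nothing about binding.

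After the filter on barcodes, the libraries held 5973 barcodes (rhIL-7-hyFc 10 mg/kg), 4697 (buffer), 11301 (combination) and 12307 (rhIL-7-hyFc 1.25 mg/kg). CD8 T barcodes had at least 1 UMI (unique molecular identifier) of Cd8a or Cd8b1, at least 1 of the Cd3 genes, and at most 1 over the macrophage genes Lyz2, C1qa, C1qb and C1qc. They made up 91.3%, 68.7%, 90.1% and 59.0% of barcodes in that order. Myeloid barcodes, with at least 5 UMIs of the same macrophage genes, numbered 247, 484, 782 and 3954. Most of those in experiment 2 also carried Cd3 UMIs (709 of 782 and 3288 of 3954), and median depths were 6450.5 and 5489 UMIs in CD8 T barcodes against 19417 and 16638 UMIs in these. Myeloid barcodes without a Cd3 UMI numbered 128, 123, 73 and 666. The 8 T cell markers summed to 6967, 7795, 7207 and 7497 CPM (UMIs per 1000000 UMIs summed over the class) in CD8 T barcodes, against 25.7, 119, 11.6 and 29.3 CPM in myeloid barcodes without Cd3. The defining markers Cd3d, Cd3e and Cd3g are at 0 in the myeloid barcodes without Cd3 by construction. In CD8 T barcodes, 10 macrophage markers (the list without Ly6c2 and Ctss) summed to 24.5 (rhIL-7-hyFc 10 mg/kg), 109 (buffer), 21.1 (combination) and 118 CPM (rhIL-7-hyFc 1.25 mg/kg), against 16632 to 22162 CPM in myeloid barcodes without Cd3. The full 12 markers summed to 3449, 3076, 2590 and 3585 CPM in CD8 T barcodes, in the same order. Both lists include Lyz2, C1qa, C1qb and C1qc, which define the classes, so part of the contrast with myeloid barcodes was set by the gates. Pairs of libraries shared 45 to 195 barcode sequences, at most 2.09% of the smaller library.

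CD8 T barcodes carried RNA of all 4 genes, and they differed from myeloid barcodes in opposite directions for the 2 PD-1 ligands. Cd274, Cd80 and Cd86 were lower in CD8 T barcodes than in myeloid barcodes in all 4 libraries, except that Cd274 was higher in both libraries of experiment 2 when each barcode counted at most 1 UMI (40.5 against 34.6 and 50.1 against 47.4 CPM). Pdcd1lg2 was higher in CD8 T barcodes than in myeloid barcodes without Cd3 in all 4. At least 1.5-fold lower were 3 of 4 members in every library against myeloid barcodes without Cd3, where 31.6% (rhIL-7-hyFc 10 mg/kg), 26.7% (buffer), 22.1% (combination) and 23.9% (rhIL-7-hyFc 1.25 mg/kg) of all measured genes were. The remaining member, Pdcd1lg2, was at least 1.5-fold higher in each, as were 30.3%, 34.9%, 47.2% and 43.1% of genes. Against all myeloid barcodes, the lower members were 3, 3, 2 and 3 of 4, beside 28.6%, 24.7%, 10.7% and 14.1% of genes, and the higher ones 0, 1, 0 and 0 of 4, beside 24.9%, 27.0%, 12.7% and 10.7%.

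Cd274 stood at 47.1 CPM in CD8 T barcodes of the rhIL-7-hyFc 10 mg/kg library (interval 45.4 to 48.9), 57.0 with buffer (54.5 to 59.7), 61.9 in the combination (60.2 to 63.7) and 85.9 with rhIL-7-hyFc 1.25 mg/kg (83.3 to 88.5). In myeloid barcodes without Cd3 it stood at 223, 235, 102 and 267 CPM in the same order. CD8 T barcodes were thus 4.74-fold (4.26 to 5.27), 4.13-fold (3.60 to 4.72), 1.65-fold (1.20 to 2.22) and 3.12-fold (2.91 to 3.34) lower, and the intervals of the 2 classes did not overlap in any library. The gap was smallest in the combination library, whose 73 myeloid barcodes without Cd3 held only 44 Cd274 UMIs. Neutrophil markers summed to 2376 CPM in those barcodes, against 331 CPM with rhIL-7-hyFc 1.25 mg/kg, and their part in the result was not tested. Against all myeloid barcodes the fold was 3.87, 3.55, 1.33 and 1.72.

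Pdcd1lg2, which encodes the second PD-1 ligand, had the reverse pattern. Its CD8 T levels were 32.6, 69.4, 79.9 and 66.2 CPM, and its levels in myeloid barcodes without Cd3 were 20.7, 13.3, 0 and 18.3 CPM. CD8 T barcodes were 1.58-fold (1.14 to 2.25), 5.22-fold (3.11 to 9.57) and 3.61-fold (2.85 to 4.65) higher in the rhIL-7-hyFc 10 mg/kg, buffer and rhIL-7-hyFc 1.25 mg/kg libraries. In the combination library 0 of 430547 UMIs were Pdcd1lg2 in myeloid barcodes without Cd3. By the interval of the ratio, the level in CD8 T barcodes was at least 9.33-fold higher. Set against a floor of 3 counts over the group, it was 11.5-fold higher. Over all myeloid barcodes the direction was seen only with buffer (2.82-fold higher, 2.34 to 3.42), because the intervals of the other 3 ratios (1.14, 1.01 and 1.04) include 1. Those myeloid barcodes carried T cell markers at 1373, 1639, 4929 and 4469 CPM.

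Cd80 varied most between libraries in CD8 T barcodes, at 2.86 CPM with rhIL-7-hyFc 10 mg/kg (2.45 to 3.33), 23.7 with buffer (22.0 to 25.4), 13.8 in the combination and 16.7 with rhIL-7-hyFc 1.25 mg/kg. Its levels in myeloid barcodes without Cd3 lay close together, at 50.2, 48.4, 60.4 and 60.2 CPM. CD8 T barcodes were 17.6-fold lower in the rhIL-7-hyFc 10 mg/kg library and 2.04-fold to 4.39-fold lower in the others. Cd86 stood at 52.5, 50.1, 34.7 and 40.6 CPM in CD8 T barcodes, against 181, 178, 163 and 203 CPM in myeloid barcodes without Cd3. CD8 T barcodes were 3.45-fold, 3.54-fold, 4.68-fold and 5.01-fold lower, so the Cd86 gap varied least between libraries.

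**Figure D1:**
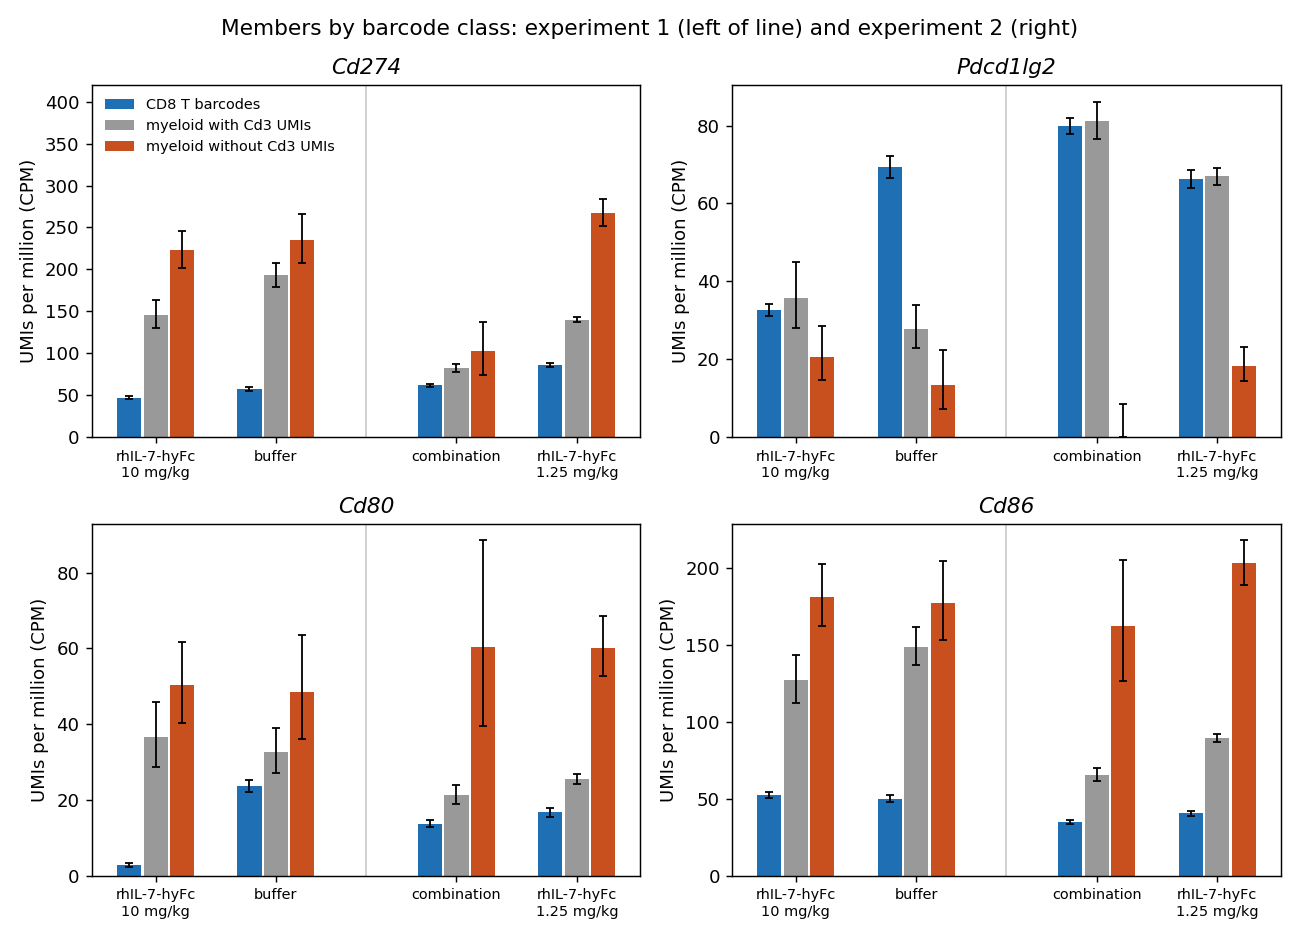
CPM (linear axis from 0) of the 4 genes in CD8 T barcodes, myeloid barcodes with Cd3 UMIs and myeloid barcodes without, for each library; bars are sums over barcodes and whiskers 95% exact Poisson intervals. Cd274, Cd80 and Cd86 are lower in CD8 T barcodes than in myeloid barcodes without Cd3 in each library, with Cd274 at 47.1 to 85.9 CPM against 102 to 267 CPM, while Pdcd1lg2 goes the other way.

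CD8 T barcodes held much of each gene's RNA in these libraries of sorted or selected cells. Of all Cd274 UMIs in a library, CD8 T barcodes held 77.2% (rhIL-7-hyFc 10 mg/kg), 50.4% (buffer), 76.9% (combination) and 28.4% (rhIL-7-hyFc 1.25 mg/kg). For Pdcd1lg2 they held 90.8%, 77.4%, 82.7% and 41.5%. These shares are to be read beside the UMIs of all genes that CD8 T barcodes held after the filter. Those were 58687089 of 64510509, 32986428 of 46128551, 76772932 of 92707291 and 48137912 of 117978684, in the same order. In the rhIL-7-hyFc 1.25 mg/kg library, myeloid barcodes held 62.4% of Cd274 UMIs and 51.2% of Pdcd1lg2 UMIs. They were 32.1% of the barcodes and held 61486405 of the 117978684 UMIs of all genes. No member was seen in 36.3%, 34.5%, 35.6% and 41.0% of CD8 T barcodes, and all 4 together in 0.165%, 1.89%, 0.855% and 1.16%.

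Shares of barcodes with a UMI follow depth, so each barcode of at least 3000 UMIs was also thinned to 3000 UMIs. Shallower barcodes were left out of the thinned shares. In the buffer library the 797 CD8 T barcodes without a productive TCR beta contig had a median of 2385 UMIs and Cd274 at 117 CPM. Before thinning, 34.4%, 31.0%, 30.6% and 33.2% of all CD8 T barcodes had a Cd274 UMI. After thinning it was 13%, 13.9%, 16.2% and 19.7% of those kept, in the order used above. Myeloid barcodes without Cd3 gave 41.7%, 43.9%, 19.7% and 45.1% at that depth. As background, Csf1r, the macrophage growth factor receptor that CD8 T cells should lack, was seen in 0.06% to 0.60% of thinned CD8 T barcodes, against 48.3% to 64.2% of thinned myeloid barcodes without Cd3. Median depths before thinning were 9677, 8289, 6450.5 and 5489 UMIs in CD8 T barcodes and 13499, 8350, 5978 and 5588.5 UMIs in myeloid barcodes without Cd3. Cd274, Pdcd1lg2 and Cd86 were above the Csf1r share in CD8 T barcodes of each library. Cd80 was above it as well, by the least in the rhIL-7-hyFc 10 mg/kg library, with 0.28% against 0.06%. In the other direction, Cd28, which encodes the T cell surface protein that CD80 and CD86 bind, was seen in 29% to 41.7% of thinned CD8 T barcodes and 0% to 1.49% of thinned myeloid barcodes without Cd3. The Csf1r and Cd28 shares are not independent of the gates. CD8 T barcodes were chosen for few macrophage UMIs, and these myeloid barcodes for no Cd3 UMIs. Pdcd1lg2 was seen in 8.24%, 17.1%, 20.2% and 15.7% of thinned CD8 T barcodes, against 6.67%, 2.04%, 0% and 4.30% of thinned myeloid barcodes without Cd3.

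**Figure D2:**
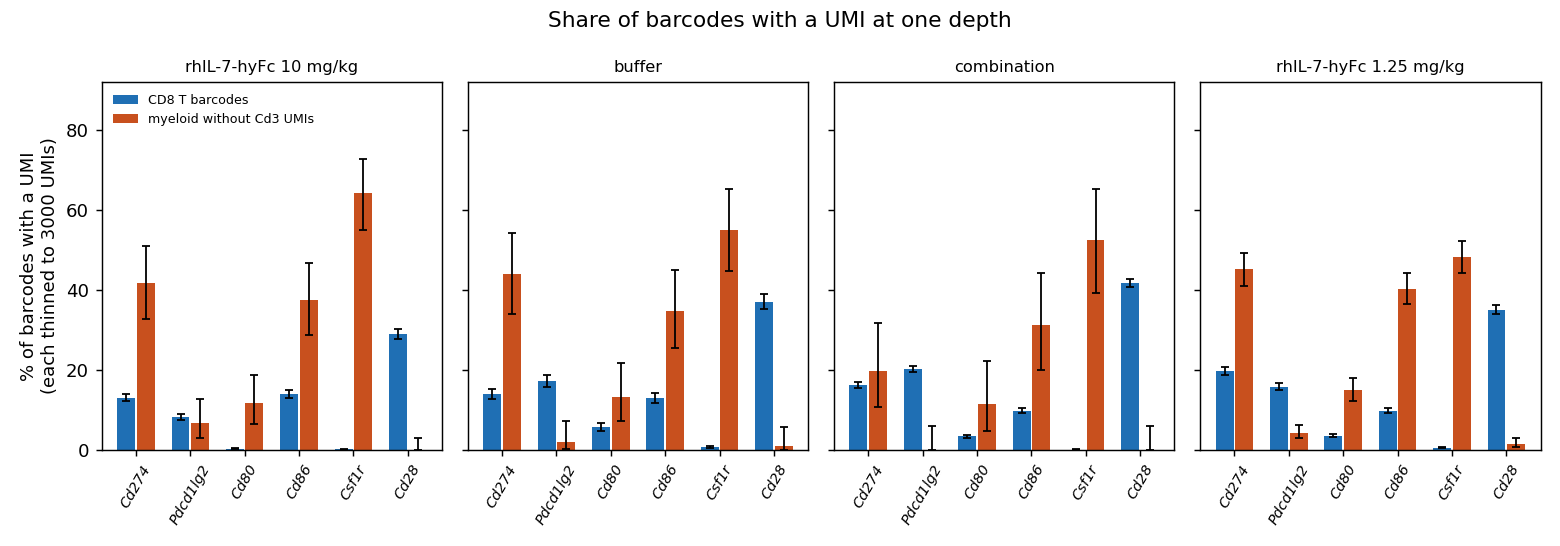
Percent of barcodes with at least 1 UMI after thinning to 3000 UMIs, for the 4 genes and for Csf1r (a macrophage gene) and Cd28 (a T cell gene), in CD8 T barcodes and in myeloid barcodes without Cd3 UMIs of each library; whiskers are 95% exact binomial intervals. Barcodes of fewer than 3000 UMIs were left out. Cd274 was seen in 13% to 19.7% of CD8 T barcodes, where Csf1r was seen in 0.60% at most. CD8 T barcodes were chosen for at most 1 UMI over Lyz2, C1qa, C1qb and C1qc.

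Set against 7 macrophage genes (Csf1r, Cd68, Fcer1g, Tyrobp, Cd74, Ctss and Apoe), Cd274 was 3.77 to 258 times as frequent per macrophage UMI in CD8 T barcodes as in myeloid barcodes without Cd3 with rhIL-7-hyFc 10 mg/kg. The ranges were 2.52 to 41.5 with buffer, 10.1 to 826 in the combination and 5.30 to 28.1 with rhIL-7-hyFc 1.25 mg/kg. The lowest of these ratios came from Ctss and Cd74, which are not limited to macrophages. The CD8 T gate leaves out barcodes rich in macrophage RNA, so these ratios are not independent of it. Cd80 came closest to equality, at 1.02 against Ctss (not separated from 1) in the rhIL-7-hyFc 10 mg/kg library, where its CD8 T level was lowest. Genes of dendritic cells and neutrophils were not compared in this way, and the part of free RNA in the CD8 T values was not tested.

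In experiment 1, the CD8 T barcodes of the rhIL-7-hyFc 10 mg/kg library had less Pdcd1lg2 and much less Cd80 than those of the buffer library. Cd86 was level over all CD8 T barcodes, but not in the subsets given below. Pdcd1lg2 was at 32.6 against 69.4 CPM, 2.13-fold lower (2.00 to 2.26). Cd80 was at 2.86 against 23.7 CPM, 8.27-fold lower (6.99 to 9.83), and was seen in 2.11% against 12% of CD8 T barcodes (0.28% against 5.63% after thinning). Cd86 was at 52.5 against 50.1 CPM (ratio 1.05, 0.988 to 1.11). With these, 2 of 4 members were at least 1.5-fold lower and 0 of 4 higher, beside 20.3% and 6.86% of 8925 measured genes, whose median log2 ratio was -0.20.

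Cd274 was 47.1 against 57.0 CPM (ratio 0.826, 0.779 to 0.877), but this difference did not hold its direction. Among CD8 T barcodes with a productive TCR beta (TRB) contig it was 46.7 against 45.0 CPM, and with TMM factors, which scale by the bulk of genes and shift each log2 ratio by 0.28, 51.9 against 51.8 CPM. Productive TRB contigs were found for 95% of CD8 T barcodes with rhIL-7-hyFc 10 mg/kg and 75.3% with buffer, and in the buffer library those with a contig had 0.38 times the Cd274 level of those without. Limited to barcodes with a contig, Cd86 was at 52.6 against 41.5 CPM, so it was not level there. The mature dendritic cell markers Fscn1, Ccl22, Cacnb3 and Il4i1 summed to 9.17 against 252 CPM in CD8 T barcodes. This sum leaves out Ccr7, which T cells also transcribe, and with it the 5 markers summed to 714 against 659 CPM. Cd274 was 46.8 against 44.4 CPM in barcodes low in genes of several other cell types, named below as under every other gate. These were low in Fscn1 and Ccl22, Xcr1 and Clec9a, S100a8 and S100a9, Siglech, and Cd79a and Ms4a1. No limit was set on keratin or collagen genes. Cd80 kept its direction there, at 2.70 against 16.2 CPM, a log2 ratio of -2.58 against -3.05 over all CD8 T barcodes.

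Myeloid barcodes of experiment 1 differed little in the members. Cd274 was at 182 with rhIL-7-hyFc 10 mg/kg against 202 CPM with buffer (1.11-fold lower, 1.01 to 1.23), and without Cd3 at 223 against 235 CPM (ratio 0.949, 0.808 to 1.12). In myeloid barcodes of 1500 to 6000 UMIs it was at 121 against 238 CPM, from only 25 against 129 barcodes. The intervals for Pdcd1lg2 (ratio 1.16), Cd80 (1.19) and Cd86 (0.982) all include 1. Over all myeloid barcodes 0 of 4 members were past 1.5-fold in either direction, beside 4.32% of genes higher and 11.1% lower. In barcodes without Cd3, 1 of 4 was past 1.5-fold higher and 0 lower, beside 11.8% and 16.1% of genes. This was Pdcd1lg2, at 20.7 against 13.3 CPM from 37 against 14 UMIs, with an interval that includes 1 (ratio 1.55, 0.821 to 3.11). In barcodes with Cd3, 0 of 4 passed (6.92% and 14.3%), and Cd274 was at 146 against 193 CPM.

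In experiment 2, adding the engager went with less Cd274 and more Pdcd1lg2 in CD8 T barcodes, the 2 PD-1 ligands again apart. Cd274 was at 61.9 in the combination against 85.9 CPM with rhIL-7-hyFc 1.25 mg/kg alone, 1.39-fold lower (1.33 to 1.45), and was seen in 16.2% against 19.7% of thinned CD8 T barcodes. Pdcd1lg2 was at 79.9 against 66.2 CPM, 1.21-fold higher (1.16 to 1.26), and seen in 20.2% against 15.7%. Cd80 was 1.21-fold lower (1.11 to 1.33) and Cd86 1.17-fold lower (1.10 to 1.24) by CPM, but their thinned shares were alike, at 3.36% against 3.53% and 9.71% against 9.79%. In CD8 T barcodes of 1500 to 6000 UMIs both were higher in the combination, Cd80 at 10.0 against 8.93 CPM and Cd86 at 41.2 against 38.5 CPM. Cd274 stayed lower in that depth range, by a smaller ratio. None of the 4 was past 1.5-fold, where 1.58% of 9044 genes were higher and 3.72% lower, around a median log2 ratio of 0.06. Neutrophil markers in these CD8 T barcodes summed to 1.88 against 29.7 CPM, and 10 macrophage markers to 21.1 against 118 CPM. Dendritic cell and B cell markers went the other way, at 30.4 against 18.5 and 6.46 against 5.19 CPM. The part of such RNA in the Cd274 value was not tested.

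In myeloid barcodes of experiment 2 the Cd274 difference was larger. Cd274 was at 82.6 against 148 CPM, 1.79-fold lower (1.68 to 1.90), and it was the 1 of 4 members past 1.5-fold, beside 6.64% of genes lower and 2.32% higher. Without Cd3 it was at 102 against 267 CPM, 2.62-fold lower (1.94 to 3.62), and seen in 19.7% against 45.1% of thinned barcodes. Pdcd1lg2 was higher in the combination over all myeloid barcodes, at 78.8 against 63.9 CPM (ratio 1.23, 1.15 to 1.32), and in those with Cd3, at 81.2 against 66.9 CPM (1.21, 1.13 to 1.30). Without Cd3 it went the other way, with 0 against 70 UMIs. It was at least 2.08-fold lower by the interval of the ratio, and 2.63-fold lower against a floor of 3 counts over the group. The counts behind this are small, with 73 barcodes in the combination, and 24.6% of genes were at least 1.5-fold lower and 15.7% higher between these sums, with 2 of 4 members among the lower. In barcodes with Cd3, Cd274 was at 82.0 against 139.8 CPM, 1.71-fold lower and again the 1 of 4 past 1.5-fold, beside 5.88% of genes lower and 1.96% higher. Cd86 was 1.41-fold lower (1.32 to 1.51) over all myeloid barcodes. In those without Cd3 it was at 163 against 203 CPM, and its ratio of 0.801 was not separated from 1 (0.618 to 1.02). Macrophage markers (the full 12) were also lower over all myeloid barcodes, at 9069 in the combination against 12594 CPM without the engager. In those without Cd3 they were at 20996.5 against 27584 CPM. T cell markers over all myeloid barcodes were at 4929 against 4469 CPM. The part of these marker differences in the Cd274 and Cd86 values was not tested.

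**Figure D3:**
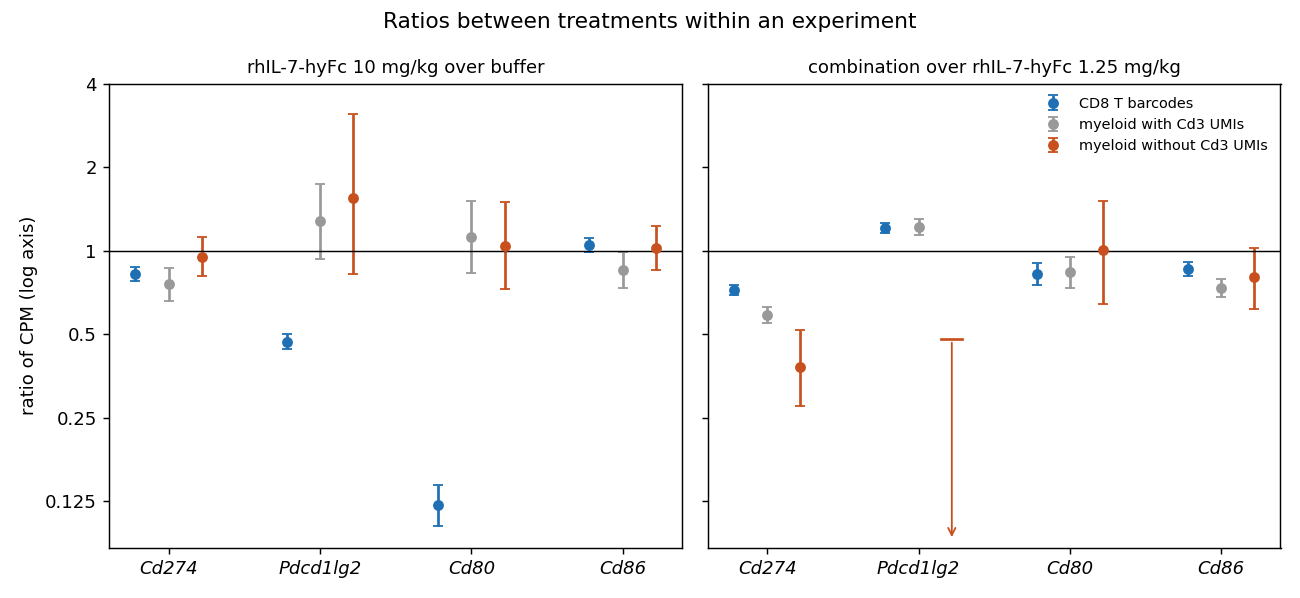
Ratio of CPM (log axis) between treatments for each gene, in CD8 T barcodes and in myeloid barcodes with and without Cd3 UMIs; whiskers are 95% exact conditional binomial intervals, and the arrow marks an upper limit where the combination had 0 UMIs. In CD8 T barcodes of experiment 1 Cd80 is the lowest point, 8.27-fold lower; in experiment 2 Cd274 lies below 1 in all 3 classes.

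Within CD8 T barcodes, Pdcd1lg2 and Cd80 were higher in barcodes of expanded clonotypes, and Cd274 was not. For barcodes whose TCR clonotype had at least 2 barcodes in its library, against those with a clonotype of 1 barcode, Pdcd1lg2 was 4.07-fold (rhIL-7-hyFc 10 mg/kg), 2.20-fold (buffer), 2.67-fold (combination) and 3.32-fold (rhIL-7-hyFc 1.25 mg/kg) higher. Cd80 was 61.0-fold (32.0 to 130), 7.04-fold (4.59 to 11.4), 17.3-fold (12.4 to 24.9) and 15.3-fold (10.6 to 22.8) higher. Barcodes with a clonotype of 1 held only 10, 22, 36 and 31 Cd80 UMIs. Cd274 had ratios of 0.80, 0.83, 0.92 and 0.92. Cd86 was mixed, with 0.60, 1.09, 1.37 and 1.28. So both PD-L2 and B7-1 RNA were higher on the expanded side in 4 of 4 libraries, and Cd274 had a ratio below 1 in 4 of 4.

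Splitting by a UMI of Pdcd1, the gene of the receptor itself, gave much the same picture for Pdcd1lg2, at 3.75-fold, 2.03-fold, 2.88-fold and 3.47-fold higher with Pdcd1. Barcodes with Pdcd1 were deeper, at medians of 13071.5 against 9364 UMIs in the rhIL-7-hyFc 10 mg/kg library, and the values are scaled to total UMIs. Cd80 was 42.3-fold, 12.7-fold and 12.7-fold higher with Pdcd1 in the rhIL-7-hyFc 10 mg/kg, combination and rhIL-7-hyFc 1.25 mg/kg libraries, but its ratio was 1.02 with buffer. The 42.3-fold value rests on 12 Cd80 UMIs in barcodes without Pdcd1 (interval 23.5 to 83.5). When CD8 T barcodes were limited to those with a TRB contig and under every other gate, a choice made after these values were seen, the ratio with buffer was 7.78 (4.30 to 15.7), and the others were 77.1, 13.5 and 13.4. The ratio of 77.1 rests on 6 Cd80 UMIs in barcodes without Pdcd1 (34.5 to 214). Tcf7, a transcription factor of naive and stem-like T cells, marked the opposite side: barcodes with it had 0.42, 0.60, 0.55 and 0.43 times the Pdcd1lg2 of those without. Cd274 with Tcf7 had ratios of 1.02, 1.41, 1.25 and 1.09, and in cycling barcodes, with Mki67 or Top2a, 0.79, 0.48, 0.66 and 0.78.

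**Figure D4:**
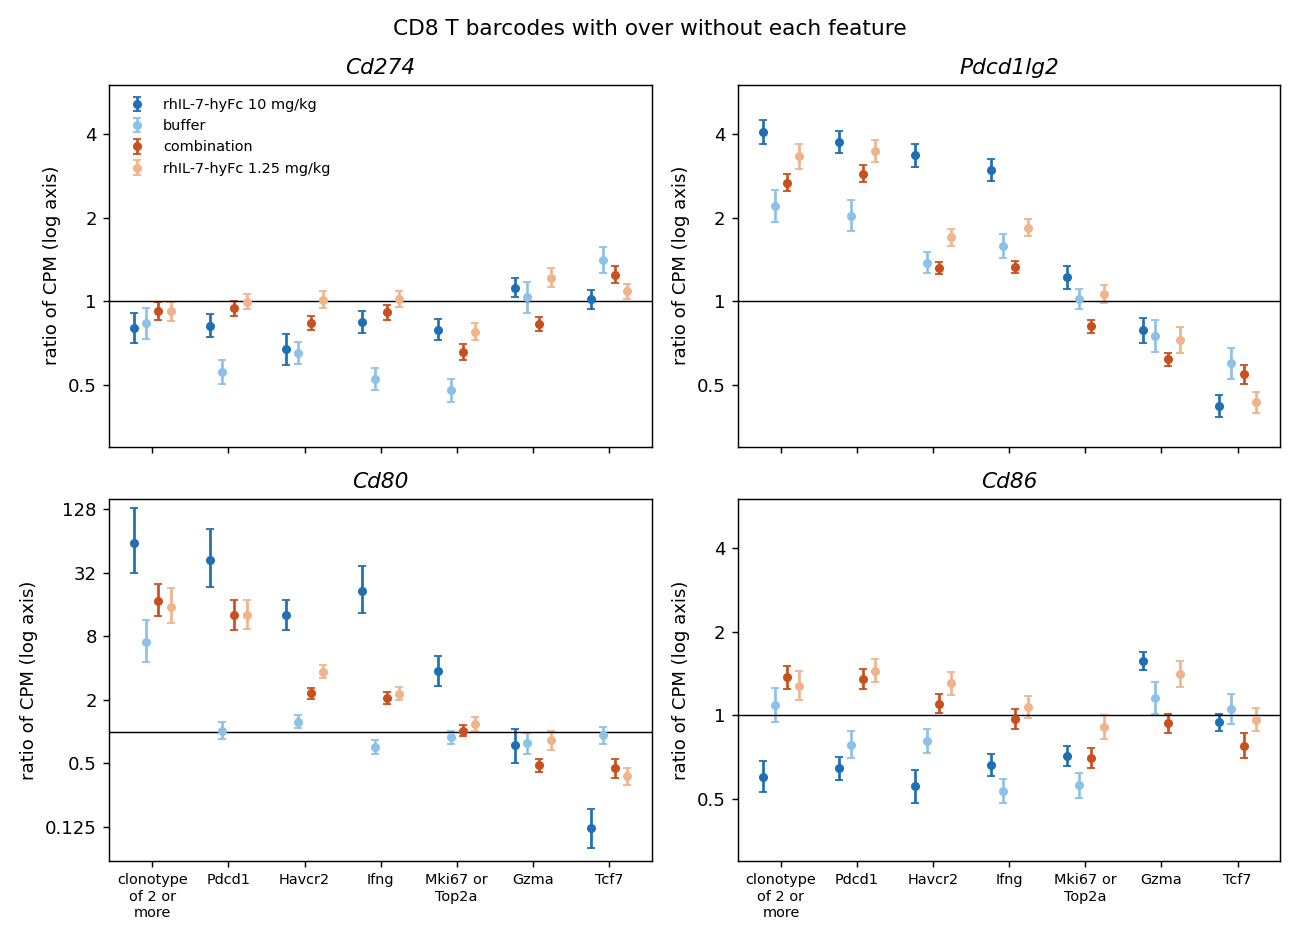
Ratio of CPM (log axes, wider for Cd80) in CD8 T barcodes with over without a clonotype of at least 2 barcodes or a UMI of the named gene, for each library; whiskers are 95% exact conditional binomial intervals. Pdcd1lg2 lies above 1 for clonotypes of 2 or more (2.20 to 4.07) and below 1 for Tcf7 (0.42 to 0.60), while Cd274 stays between 0.80 and 0.92 for such clonotypes.

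These barcodes were not equally common in the groups. Of CD8 T barcodes, 17.0% had a Pdcd1 UMI with rhIL-7-hyFc 10 mg/kg against 69.2% with buffer, and 62.3% in the combination against 48.1% with rhIL-7-hyFc 1.25 mg/kg. Of those with a clonotype, 12% against 65.3% and 50.7% against 42.8% were in clonotypes of at least 2 barcodes. Compared among such clonotypes only, Pdcd1lg2 in experiment 1 was 86.6 against 82.6 CPM (ratio 1.05, 0.96 to 1.15) and Cd80 15.1 against 23.1 CPM (1.53-fold lower, 1.25 to 1.89). Among clonotypes of 1 barcode, Pdcd1lg2 was 21.3 against 37.6 CPM (1.77-fold lower), and Cd80 was 0.25 against 3.28 CPM from 10 against 22 UMIs. Over all CD8 T barcodes the same genes were 2.13-fold and 8.27-fold lower, and what part the share of expanded clonotypes has in this was not tested. Cd86 in experiment 1 differed in opposite directions on the 2 sides. It was at 34.3 against 42.7 CPM in clonotypes of at least 2 and at 56.9 against 39.2 CPM in clonotypes of 1. In experiment 2, by contrast, Cd274 was lower in the combination on both sides, at 58.8 against 78.7 CPM in clonotypes of at least 2 (1.34-fold lower) and 63.7 against 85.5 CPM in clonotypes of 1 (also 1.34-fold lower). Pdcd1lg2 was likewise higher on both, at 116 against 99.7 CPM (ratio 1.17) and 43.6 against 30.0 CPM (1.45).

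Barcodes gated by genes of mature dendritic cells or neutrophils also carried the members, and some of them lay among the CD8 T barcodes. Barcodes with at least 5 UMIs of Fscn1 and Ccl22, markers of mature dendritic cells, numbered 6 (rhIL-7-hyFc 10 mg/kg), 157 (buffer), 99 (combination) and 204 (rhIL-7-hyFc 1.25 mg/kg), of which 3, 68, 79 and 80 were CD8 T barcodes. They had Cd274 at 362, 309, 253 and 237 CPM and Cd80 at 186, 186, 137 and 102 CPM. In the buffer library these 157 barcodes held 41.9% of all Cd80 UMIs, and the CD8 T barcodes among them 261 of the 781 Cd80 UMIs of that class. The S100a8 and S100a9 gate, genes of neutrophils, held 6, 5, 40 and 104 barcodes with Cd274 at 570.2, 979.9, 169 and 259.6 CPM, from 50, 16, 80 and 310 UMIs. No barcode passed the gate for Krt8 and Krt18, so Cd274 of tumour cells was not measurable here.

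In CD8 T barcodes of experiment 1, the receptor genes Ctla4 and Pdcd1 were lower along with the ligands Pdcd1lg2 and Cd80. The receptor list held Pdcd1, Cd28, Ctla4, Rgmb and also Icos, which is not a receptor of the members. Of these 5 genes, 3 were at least 1.5-fold lower and 1 higher with rhIL-7-hyFc 10 mg/kg than with buffer. Their median log2 ratio was -1.22 against -0.20 over all genes, of which 20.3% were lower and 6.86% higher. Ctla4, the inhibitory receptor for CD80 and CD86, was at 71.8 against 325 CPM (4.52-fold lower), Pdcd1, which encodes PD-1, at 137 against 520.2 CPM (3.81-fold lower), and Rgmb, a PD-L2 receptor, at 6.68 against 2.46 CPM (2.72-fold higher). The list of other costimulatory and inhibitory ligands also held Cd40, which encodes a receptor. Of its 7 measured genes, 5 were lower and 1 higher (median -2.06), beside the same 20.3% and 6.86% of all genes. Cd40 was 14.8-fold, Cd70 6.31-fold and Tnfsf4 4.51-fold lower. Of 2 other B7 genes measured, Icosl and Vsir, 0 passed 1.5-fold. Of 16 genes on the path from interferon gamma to Cd274, 5 were higher and 2 lower (median 0.29), beside 6.86% and 20.3% of all genes. Ifng itself was 3.51-fold lower and its target Cxcl9 4.28-fold lower, while the receptor chain Ifngr2 was 2.67-fold higher. Mature dendritic cell markers in these barcodes were at 9.17 against 252 CPM without Ccr7 and at 714 against 659 CPM with it. Macrophage markers were at 24.5 against 109 CPM over 10 genes without Ly6c2 and Ctss and at 3449 against 3076 CPM over the full 12. The part of such RNA in these values was not tested.

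In CD8 T barcodes of experiment 2, 1 of the same 5 genes of the receptor list was at least 1.5-fold higher and 1 lower. Ctla4 was at 262 in the combination against 142 CPM with rhIL-7-hyFc alone (1.84-fold higher) and Rgmb was 1.93-fold lower. Over all genes 1.58% were higher and 3.72% lower. Of 5 genes measured from the list of other ligands 1 was lower, the receptor gene Cd40 at 4.18 against 10.1 CPM (2.41-fold). Of 17 interferon gamma pathway genes, 3 were lower and 0 higher (median -0.19 against 0.06 over all genes), beside the same 3.72% and 1.58%. These were the chemokine Cxcl9 (9.30-fold), the chemokine Cxcl10 (61.0 against 135 CPM, 2.21-fold) and Ifngr2 (2.07-fold). Macrophage markers were also lower in the combination's CD8 T barcodes, at 21.1 against 118 CPM over 10 genes without Ly6c2 and Ctss and at 2590 against 3585 CPM over the full 12, and their part in these values was not tested.

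In myeloid barcodes of experiment 1, 2 of 17 interferon gamma pathway genes were at least 1.5-fold higher with rhIL-7-hyFc 10 mg/kg and 1 lower (median 0.16), beside 4.32% of all genes higher and 11.1% lower. Cxcl9 was at 396 against 66.5 CPM (5.96-fold higher) and Gbp2, an interferon-induced GTPase, was 2.36-fold higher, while Cd274 in the same barcodes was 1.11-fold lower. In experiment 2, 2 of 17 were lower in the combination and 0 higher (median -0.27), beside 6.64% and 2.32% of all genes, with Cxcl10 at 335 against 546 CPM (1.63-fold lower) and Ifngr2 1.56-fold lower. Of other B7 genes in these barcodes, Cd276 was 3.20-fold lower and Vsir 1.49-fold lower.

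Over 20 profiles (4 libraries by 5 barcode classes, which share libraries and differ in depth), Cd274 varied most like Rap2b, a small GTPase (Pearson r = 0.94 on log2 CPM), Pfkfb3, a regulator of glycolysis (0.92), and Fabp5, a fatty acid binding protein (0.92). Pdcd1lg2 was most like Ccdc107 (0.96), Cbx5, which encodes a heterochromatin protein (0.95), and Nmrk1 (0.95). Cd80 was most like Cd83, a surface protein of mature dendritic cells (0.92), and Cd86 like Ube2l6, an enzyme of ISG15 conjugation (0.95). Among the members, Cd274, Cd80 and Cd86 had r of 0.73 to 0.74 with each other, and Pdcd1lg2 had -0.20 with Cd274, -0.32 with Cd80 and -0.58 with Cd86. These are descriptions of 20 sums among 7801 genes and carry no test.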

How the data were processed

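The deposited matrices hold raw UMI counts per gene and barcode from 10x 5′ gene expression libraries, made by the authors with Cell Ranger 4.0.0 (experiment 1) and 6.1.2 (experiment 2) per the file headers. The build was GRCm38, from the submitters' processing notes. The sources used here do not say how barcodes were kept upstream. The deposited TCR contig tables give UMI counts per contig, and productive, high-confidence contigs were used. Libraries held 65036440 UMIs (rhIL-7-hyFc 10 mg/kg), 47308214 (buffer), 92863323 (combination) and 118191371 (rhIL-7-hyFc 1.25 mg/kg), and PCR copies share a UMI.

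Barcodes with at least 500 genes and under 10% mitochondrial UMIs were kept. No doublets were removed, and 1 alternative leaves likely doublets out. Counts were summed over the barcodes of a class and scaled to CPM, with exact Poisson intervals. Ratios have exact conditional binomial intervals and shares exact Clopper-Pearson intervals, at 95%. Genes with at least 5 CPM on 1 side counted as measured, and those past 1.5-fold give the background percentages. Intervals were tested on simulated counts. Comparisons of treatments stay within an experiment.

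The 4 members, the gene lists and the gates were chosen with earlier results of these data known. Beside the members, the text names from each list the 3 genes with the largest absolute log2 ratio among those with at least 50 UMIs, some by count only, and for each member up to 3 genes of highest Pearson r. Genes shown in gates, states or marker sums were named for their role. Alternatives were a stricter gate, a TRB contig, no Cd3 UMIs, no filter, TMM factors (edgeR 4.0.16, R 4.3.3), the mean over barcodes, at most 1 UMI per barcode, no cycling barcodes and no likely doublets. Barcodes under every other gate (low in Fscn1 and Ccl22, Xcr1 and Clec9a, S100a8 and S100a9, Siglech, and Cd79a and Ms4a1), these with a TRB contig, and barcodes of 1500 to 6000 UMIs were added after seeing the data, as were the values within clonotype classes. The gates of keratin and collagen genes were not part of that setting. Python 3.11.15 with numpy 2.4.6, scipy 1.17.1 and pandas 2.3.3 was used. Promoters came from RefSeq, and gene positions from GENCODE M21.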

Additional observations from a re-analysis of the deposited data

Results flagged for a closer look

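Pdcd1lg2 differed between treatments in opposite directions in 2 classes of experiment 2. In CD8 T barcodes it was 1.21 times as high in the combination as with rhIL-7-hyFc 1.25 mg/kg alone. In myeloid barcodes without Cd3 the ratio was 0, from 0 UMIs in 73 barcodes against 70 UMIs in 666 barcodes. Over all myeloid barcodes (1.23) and in those with Cd3 (1.21) it went the same way as in CD8 T barcodes, so the opposite direction rests on the class with 73 barcodes. Those with Cd3 carried T cell markers at 5082 (combination) and 4763 CPM (rhIL-7-hyFc 1.25 mg/kg), so their ratio is not one of myeloid RNA alone. The difference between the CD8 T ratio and that without Cd3 was not tested, since each group is 1 library.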

How the results depend on the processing

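No paired analysis was possible because each group is 1 library, and for the same reason no replicate could be left out. Of 366 values recomputed for the 4 genes under the alternatives, 202 moved by less than counting error, 153 moved by more and 11 reversed. A reversal was counted only where the interval of the main ratio excludes 1. Changes of direction in the other comparisons are among the moved or unmoved values, and settings with no UMI on a side were left out. All values here are log2 ratios. Cd274 in CD8 T barcodes of experiment 1 (-0.28 over all) turned to 0.0032 with the stricter gate, 0.051 with a TRB contig, 0.0036 with TMM factors, 0.080 with at most 1 UMI per barcode, 0.077 under every other gate and 0.12 with both, and was -0.39 without likely doublets, -0.45 as a mean of barcodes and -0.65 without cycling barcodes. In experiment 2 (-0.47) it was -0.40 without doublets, -0.39 as a mean, -0.31 with at most 1 UMI, -0.39 without cycling barcodes and -0.24 at 1500 to 6000 UMIs. In that depth range Cd80 turned to 0.17 and Cd86 to 0.097. Myeloid Cd274 in experiment 1 (-0.15) was -0.39 with at most 1 UMI and -0.98 at 1500 to 6000 UMIs, the latter from 25 against 129 barcodes. In experiment 2 (-0.84) it was -1.39 without Cd3 and -0.45 with at most 1 UMI, and myeloid Cd80 without Cd3 turned to 0.0046.

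For Cd274 in CD8 T over myeloid barcodes, at most 1 UMI per barcode gave -0.53 (rhIL-7-hyFc 10 mg/kg, -1.95), -1.0 (buffer, -1.83), and reversed to 0.23 (combination, -0.41) and 0.083 (rhIL-7-hyFc 1.25 mg/kg, -0.78). That setting removes the extra UMIs of the deeper class by construction. In the same order, barcodes without Cd3 gave -2.24, -2.05, -0.72 and -1.64, and 1500 to 6000 UMIs gave -0.89, -1.60, -0.73 and -1.40. That depth range held 25, 129, 66 and 540 myeloid barcodes. The mean of barcodes gave -1.81, -1.62 and -0.95 for all but the combination, and TMM factors -0.51 in the combination and -0.88 with rhIL-7-hyFc 1.25 mg/kg. In the buffer library it was -2.11 with the stricter gate, -2.17 with a TRB contig, -1.46 without cycling barcodes, -2.19 under every other gate and -2.24 with both. With rhIL-7-hyFc 1.25 mg/kg it was -0.84 with the stricter gate, -0.87 without doublets, -0.88 without cycling barcodes, -0.89 under every other gate and -0.92 with both. Causes were not tested otherwise.

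Cd80 in CD8 T barcodes of experiment 1 (-3.05) was -2.58 under every other gate, and lower still without likely doublets (-3.67), as a mean of barcodes (-3.82), at 1500 to 6000 UMIs (-3.98) and without cycling barcodes (-4.05). Pdcd1lg2 in CD8 T barcodes ranged from -1.27 to -0.81 in experiment 1 and from 0.23 to 0.69 in experiment 2. The background counts depend on the minimum level: for CD8 T barcodes of experiment 1, 612 genes were higher and 1813 lower, 367 and 850 at a minimum of 20 CPM, and 2704 and 6675 with no minimum. In the combination, myeloid barcodes without Cd3 held 44 Cd274 UMIs and 0 Pdcd1lg2 UMIs in 73 barcodes.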
